A study of Homo sapiens with 6 samples.

Results

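The genes described are the receptor chains for interleukin-13 and interleukin-4, IL13RA1, IL13RA2 and IL4R, and STAT6, the transcription factor that carries their signal. They were found by gene symbol in the deposited count table, 4 of the 57396 genes it lists, and all 4 were among the 15312 genes that passed the low-count filter. They were chosen by a rule that rested on their measured difference between the SAM and control libraries, so their fold changes are given as a description, with standard errors and intervals and without a test. RNA was sequenced from PC-3, a prostate carcinoma cell line. In 3 libraries the cells had 5 days with S-adenosylmethionine (SAM, the methyl donor of most cellular methylation reactions) at 160 micromolar. In 3 control libraries they had 5 days with a PBS vehicle. Nothing in the labels says whether the 3 libraries of a group came from separate cultures, so errors and p-values cover the variation among libraries, part or all of which can be technical.

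IL-4 binds IL4R, which then pairs with the common gamma chain IL2RG in blood cells or with IL13RA1 in most other cells. IL-13 binds IL13RA1 with IL4R, and JAK kinases on the chains then phosphorylate STAT6, which enters the nucleus and turns on genes of mucus production, chemokine release and tissue repair. IL13RA2 binds IL-13 more tightly than IL13RA1 does, has only a short cytoplasmic tail and is known mainly as a decoy receptor, and it is expressed by a number of solid tumours.

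The 6 libraries held between 9379258 counts in control 1 and 28995160 counts in SAM 1, so that 3 counts, taken as the limit of detection, were worth 0.103 to 0.322 CPM, the unit used for counts scaled to library size. Control 1 and SAM 2 stood apart from the other 4 libraries, with 1.18% and 1.56% of their counts in the gene CTD-2328D6.1 against 0.0324% to 0.0636%, and counts of genes called are also given without them. Epithelial genes of PC-3 were high, with KRT8 at 876 CPM and EPCAM at 420 CPM in controls, and the androgen-regulated KLK2 and KLK3 had 0 counts in every library. Of the 6 markers of PC-3 identity VIM was called higher and CDH1 lower with SAM, and of the 5 luminal prostate markers TMPRSS2 was called lower. The 10 leukocyte markers together summed to 1.5 to 2.41 CPM in controls and 2.28 to 2.77 CPM with SAM, with MS4A1 at 0 and CD68 called higher, at 0.438 against 1.21 CPM. All 4 of these calls ended when any control or SAM 1 was dropped (largest edgeR adjusted p 0.124 for VIM, 0.141 for CDH1, 0.170 for TMPRSS2 and 0.198 for CD68), and all but that of CDH1 also without control 1 and SAM 2. The TMPRSS2 call held in 7 of 17 alternatives, and CD68 reached the low-count filter of 0.564 CPM in 1 control and 3 SAM libraries. Fibroblast markers summed to 17.6 to 19.4 CPM in controls and 17.4 to 17.6 CPM with SAM. Nearly all of that sum was COL1A1, at 17.7 and 16.8 CPM, and DCN and LUM were at 0. Endothelial markers summed to 1.18 to 1.86 and 1.24 to 2.11 CPM. The part of these markers in the results was not tested. Across all tested genes, 795 (5.19%) were higher and 803 (5.24%) lower with SAM, 10.4% in all (edgeR quasi-likelihood test, Benjamini-Hochberg adjusted p under 0.05).

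IL13RA2 was the member that differed most between the groups. It lies on the X chromosome at 115003975 to 115019977 on the minus strand (ENSG00000123496, positions as deposited, which match GRCh38). It was read 34, 82 and 71 times in controls 1, 2 and 3 and 783, 201 and 252 times in SAM 1, 2 and 3. Scaled to library size these counts were 3.65, 3.72 and 3.48 CPM in controls and 27.0, 17 and 16.6 CPM with SAM. The 3 controls lay close together, SAM 1 was the highest of the treated libraries, and the groups did not overlap. The intervals for counting error did not overlap either, since those of the controls ended at 5.10 CPM or below and those of the SAM libraries began at 14.65 CPM or above (95% exact Poisson intervals).

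The mean of IL13RA2 was 3.62 ± 0.126 CPM in controls and 20.2 ± 5.87 CPM with SAM (SD, n = 3 each), a log2 fold change of 2.50 with an SE of 0.21 and a 95% interval of 2.02 to 2.97. Between single libraries the ratio of SAM to control ran from 4.47 to 7.76. By log2 fold change IL13RA2 ranked 6th from the top among the 15312 tested genes. The coefficient of variation was 3.49% over the controls and 29.0% over the SAM libraries, most of it from SAM 1. Without SAM 1 the log2 fold change of IL13RA2 was 2.21 with an SE of 0.13. In bulk RNA, more cells with the transcript and more transcript per cell cannot be told apart.

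IL13RA1, the signalling IL-13 chain, differed between the groups by less than the spread within them. It also lies on the X chromosome, at 118727572 to 118794539 on the plus strand (ENSG00000131724). Its level was 119, 129 and 119 CPM in controls 1 to 3 and 125, 123 and 115 CPM in SAM 1 to 3. The groups overlapped, with the highest value in control 2 and the lowest in SAM 3. Its mean was 122 ± 6.04 CPM in controls and 121 ± 4.90 CPM with SAM, and the log2 fold change of -0.02 (SE 0.09) had a 95% interval of -0.22 to 0.19.

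IL4R, the chain shared by both cytokines, lies on chromosome 16 at 27313668 to 27364778 on the plus strand (ENSG00000077238). It was measured at 78.5, 81.7 and 83.2 CPM in controls and 70.5, 72.4 and 81.3 CPM in SAM 1, 2 and 3. SAM 1 and SAM 2 lay below all controls and SAM 3 lay among them, so the groups overlapped. The means were 81.1 ± 2.39 and 74.7 ± 5.74 CPM, with a log2 fold change of -0.12 (SE 0.10, 95% interval -0.33 to 0.09).

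STAT6, the transcription factor downstream of these chains, lies on chromosome 12 at 57095408 to 57132139 on the minus strand (ENSG00000166888). Its levels were 112, 110 and 109 CPM in controls and 94.0, 103 and 105 CPM in SAM 1, 2 and 3. Every SAM library lay below every control, with SAM 1 the lowest. The means were 111 ± 1.41 and 101 ± 5.82 CPM, and the log2 fold change was -0.14 (SE 0.09, 95% interval -0.34 to 0.07). Of the tested genes, 17.9% had all SAM libraries above all controls and 18.8% had them all below. Of the 4 members, IL13RA2 was the 1 called by the test across all genes, against 10.4% of tested genes. Nothing is read from these counts of members, because the same contrast chose them. Summed, the 4 members took 313.6 to 324.9 CPM in controls and 315.3 to 318.1 CPM with SAM.

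**Figure D1:**
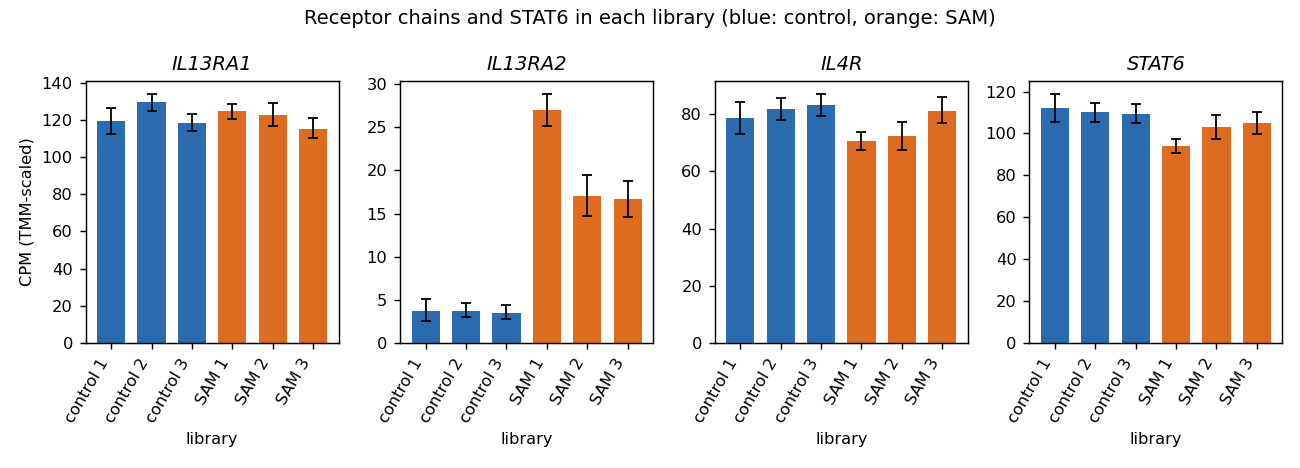
Level of IL13RA1, IL13RA2, IL4R and STAT6 in each of the 6 libraries, in CPM on axes that start at 0 and differ between panels, with blue bars for control, orange bars for SAM and 95% exact Poisson intervals as error bars. IL13RA2 stands at 3.48 to 3.72 CPM in controls and 16.6 to 27.0 CPM with SAM, while the IL13RA1 bars of the groups overlap.

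Set against transcript length, the order of the members in control cells was IL13RA1, STAT6, IL4R and IL13RA2. Dividing by the longest annotated transcript of each gene gave levels of 29.2 ± 1.44 CPM per kb for IL13RA1, 27.5 ± 0.350 for STAT6, 22.4 ± 0.659 for IL4R and 2.41 ± 0.0844 for IL13RA2 (mean and SD of 3 controls). The IL13RA1 range of 28.3 to 30.9 CPM per kb lay just above the STAT6 range of 27.2 to 27.9, and the gap between these neighbours was close to the SD of IL13RA1. IL4R was apart from both, at 21.7 to 23.0 CPM per kb, and IL13RA2 was far below, at 2.32 to 2.49. Among the 14882 tested genes with a length, these control levels stood at the 85.0th percentile for IL13RA1, the 84.0th for STAT6, the 80.4th for IL4R and the 30.0th for IL13RA2.

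With SAM the order per kb of the longest transcript was the same, and the distance of IL13RA2 from the others was smaller. IL13RA1 stood at 28.9 ± 1.17, STAT6 at 25 ± 1.45, IL4R at 20.6 ± 1.58 and IL13RA2 at 13.5 ± 3.92 CPM per kb. IL13RA2 in SAM 1, at 18.0 CPM per kb, came near the lowest IL4R value of 19.5 CPM per kb, which was in the same library. Dividing by the union of exons instead, IL13RA2 averaged 12.4 ± 3.61 CPM per kb with SAM against 12.7 ± 0.976 for IL4R and 13.8 ± 0.797 for STAT6, and in SAM 1 IL13RA2 at 16.6 exceeded STAT6 at 12.9 and IL4R at 11.98 CPM per kb, so the order of these 3 members with SAM depends on the length used. The percentile of IL13RA2 among tested genes was 69.0 with SAM, that of IL13RA1 84.1, that of STAT6 81.8 and that of IL4R 78.3.

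The balance of the IL-13 chains was compared within each library, where scaling plays no part. IL13RA2 gave 2.96%, 2.80% and 2.85% of the summed IL13RA1 and IL13RA2 counts in controls 1 to 3, and 17.8%, 12.2% and 12.6% in SAM 1 to 3. The widest control interval was 2.13% to 4.11% in control 1 and the lowest SAM interval 10.7% to 13.8% in SAM 2 (95% Wilson intervals, counting error only), so the groups were apart in every library. The mean share was 2.87% ± 0.0864 in controls and 14.2% ± 3.13 with SAM. Per kb of transcript, IL13RA1 exceeded IL13RA2 by 12.1 ± 0.372 times in controls and by 2.24 ± 0.511 times with SAM. The lowest of these ratios was 1.65 in SAM 1, and IL13RA1 stayed the more abundant chain in all 6 libraries. The ratio of IL4R to IL13RA1 per kb was 0.767 ± 0.0410 in controls and 0.716 ± 0.0857 with SAM, and its values overlapped.

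**Figure D2:**
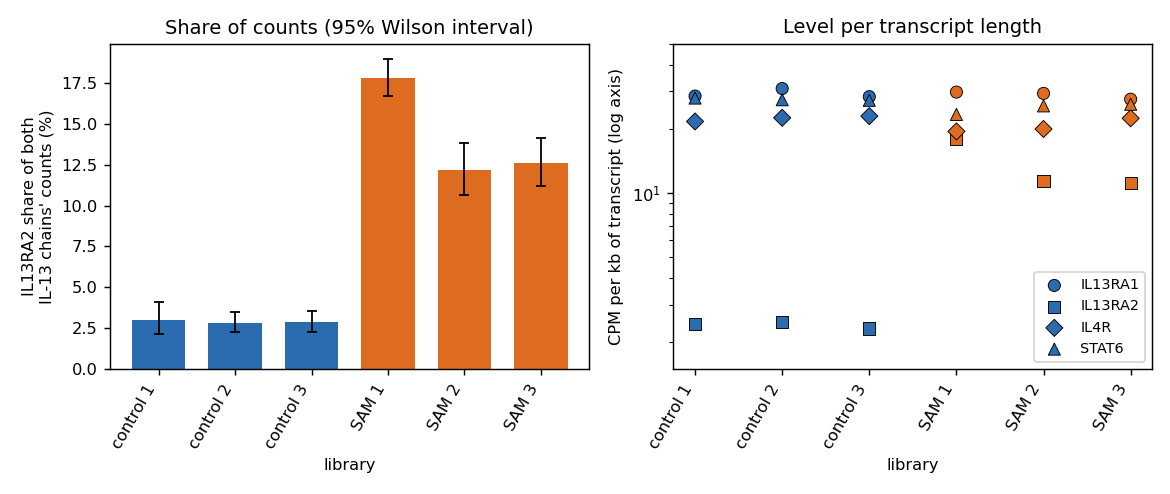
Left, IL13RA2 as a percent of the summed IL13RA1 and IL13RA2 counts in each library (bars from 0, 95% Wilson intervals); right, level of each member in CPM per kb of its longest transcript on a log axis, 1 symbol for each gene. Controls lie at 2.80% to 2.96% and SAM libraries at 12.2% to 17.8%, and IL13RA2 moves toward the other 3 members.

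Among 31 chains listed for type I cytokine receptors, IL13RA1 ranked 1st per kb of the longest transcript in both groups. The list includes IL2RA and IL15RA, which are not type I chains by structure. IL15RA ranked 8th in controls, above IL13RA2. IL7R, the interleukin-7 receptor chain, ranked 2nd at 28.6 ± 1.66 CPM per kb in controls, which was not separated from IL13RA1 beyond the spread. IL4R ranked 3rd in both groups. IL13RA2 ranked 10th in controls and 5th with SAM, between IL27RA at 14.3 ± 1.12 and OSMR, the oncostatin M receptor, at 10.8 ± 1.69 CPM per kb. With its SD of 3.92, IL13RA2 was not separated from either of these neighbours. By the union of exons, IL4R stood at 13.8 CPM per kb in controls and 12.7 with SAM. Chains other than the members have no level by that length, so the ranks rest on the longest transcript.

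**Figure D3:**
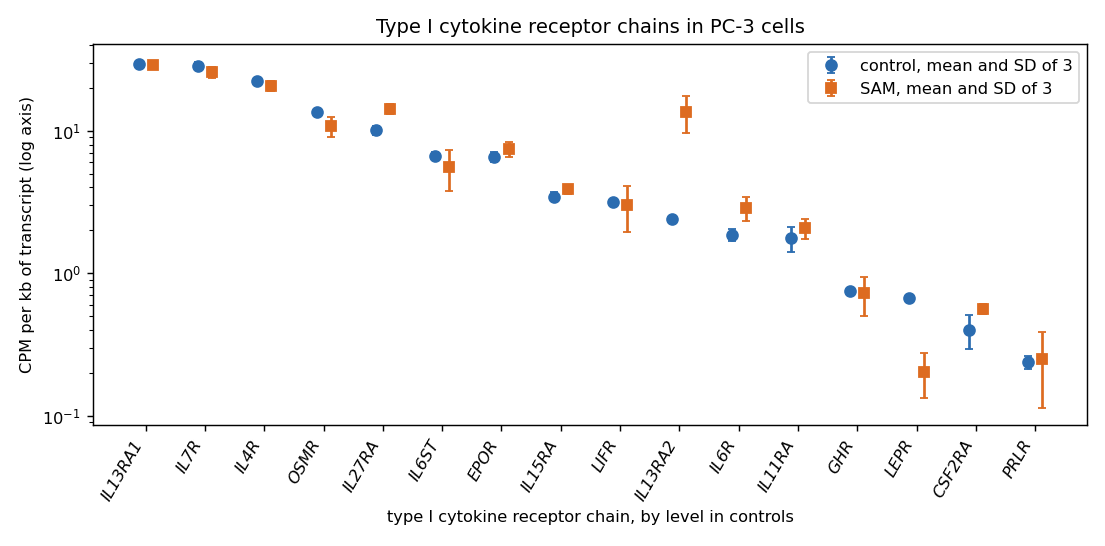
Mean level and SD (n = 3) of the chains listed for type I cytokine receptors, IL15RA among them, at 0.2 CPM per kb or more in controls (blue circles) or SAM (orange squares). The axis is logarithmic and the order is that of the control level. Per kb of the longest transcript, IL13RA2 stands at 2.41 CPM in controls and 13.5 with SAM. IL13RA1, IL7R and IL4R lead in both groups by this length.

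The ligands of these receptors were not detected at this depth. IL13 had 0 counts in every library, and IL4 had 0 counts in all controls and in SAM 1 and 1 count each in SAM 2 and SAM 3. A count of 0 allows up to 0.103 CPM in the deepest library and 0.322 CPM in the shallowest. IL2RG, the common gamma chain, was close to that limit, with 1, 6 and 3 counts in controls and 10, 4 and 6 counts with SAM. Its pooled ratio of SAM to control was 1.85, with an exact 95% interval of 0.826 to 4.42 that covers counting error only, and it was removed by the low-count filter. Per kb of transcript, IL2RG stood at 0.0863 ± 0.0424 CPM in controls, against 29.2 for IL13RA1, the other chain that pairs with IL4R.

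How many signalling genes around the members passed the test depended on the setting, so nothing is read from their number. The lists of ligands, of kinases and adaptors, of inhibitors and coactivators and of other STATs together hold 43 genes, 36 of them tested, of which 1 was higher, SOCS1, 1 was lower, STAT2, and 34 did not pass. That is 5.56% called, against 10.4% of all tested genes, and the median log2 fold change of the 36 genes was -0.05, against -0.01 over all tested genes. By direction alone, 15 of them had a log2 fold change above 0 and 21 below. In 11 of the 36 all SAM libraries lay below all controls, and in 3 above, where 18.8% and 17.9% of all tested genes did so. Without control 1 and SAM 2, 1 gene was higher and 4 were lower.

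Among the receptor kinases, JAK1, which binds IL4R, was measured at 166, 148 and 155 CPM in controls and 112, 148 and 104 CPM in SAM 1, 2 and 3. SAM 2 lay just below the lowest control, with the other SAM libraries well below it. The log2 fold change of JAK1 was -0.37 (SE 0.13), with an adjusted p = 0.10 by the edgeR quasi-likelihood test. JAK2, which can act with the IL-13 receptor, was at 12.3 ± 0.395 CPM in controls and 9.38 ± 1.45 CPM with SAM, with an adjusted p = 0.0991 in the same test. TYK2, the kinase bound to IL13RA1, was at 118 ± 7.46 and 121 ± 8.49 CPM, with overlapping groups. Per kb, TYK2 at 20.7 and JAK1 at 20.1 CPM in controls stood well above JAK3 at 2.51 and JAK2 at 1.76 CPM. None of the 16 tested kinases and adaptors passed, and their median log2 fold change was -0.19. IRS2, the adaptor that IL4R recruits, was at 17.4, 20.2 and 19.5 CPM in controls and 14.6, 15.8 and 10 CPM with SAM. Every SAM library lay below every control, with an adjusted p = 0.0739 by edgeR. DOK1 was likewise below in every SAM library (edgeR adjusted p = 0.0566). AKT1 went the other way, at 133 ± 3.35 and 161 ± 4.13 CPM (edgeR adjusted p = 0.0670). Of the 16, 7 had all SAM libraries below all controls and 1 above, where 18.8% and 17.9% of all tested genes did so.

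Of the 17 tested inhibitors and coactivators, SOCS1 was higher and none was lower. SOCS1, a suppressor of JAK kinases that STAT6 and other STATs can induce, had 1, 10 and 11 counts in controls and 51, 9 and 20 counts in SAM 1, 2 and 3. In CPM these were 0.107, 0.454 and 0.539 against 1.76, 0.761 and 1.32, so that all SAM libraries lay above all controls at a low level. The log2 fold change of SOCS1 was 1.69 (SE 0.42), with an edgeR adjusted p = 0.0337, and the call did not hold with limma trend or when control 1, control 2, control 3 or SAM 1 was dropped (largest adjusted p 0.169). SOCS1 reached the low-count filter of 0.564 CPM only in the 3 SAM libraries, was removed by a filter of 1 CPM and got no adjusted p from DESeq2, so its call and the count that holds it are no support for a difference. SOCS3, another JAK inhibitor, stood at 21.4 ± 1.08 and 22.9 ± 1.22 CPM, and CISH, of the same family, at 4.67 ± 0.894 and 5.49 ± 1.12 CPM, with overlapping groups in both. PARP14, a coactivator of STAT6, was at 80.0 ± 6.62 CPM in controls and 58.0 ± 10.9 CPM with SAM. All SAM libraries lay below all controls, with an edgeR adjusted p = 0.0547. PTPN2, on the same list, went the other way, at 87.9 ± 4.67 and 107 ± 12.4 CPM (edgeR adjusted p = 0.117). In 3 of the 17 all SAM libraries lay below all controls and in 2 above, against 18.8% and 17.9% of all tested genes.

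**Figure D4:**
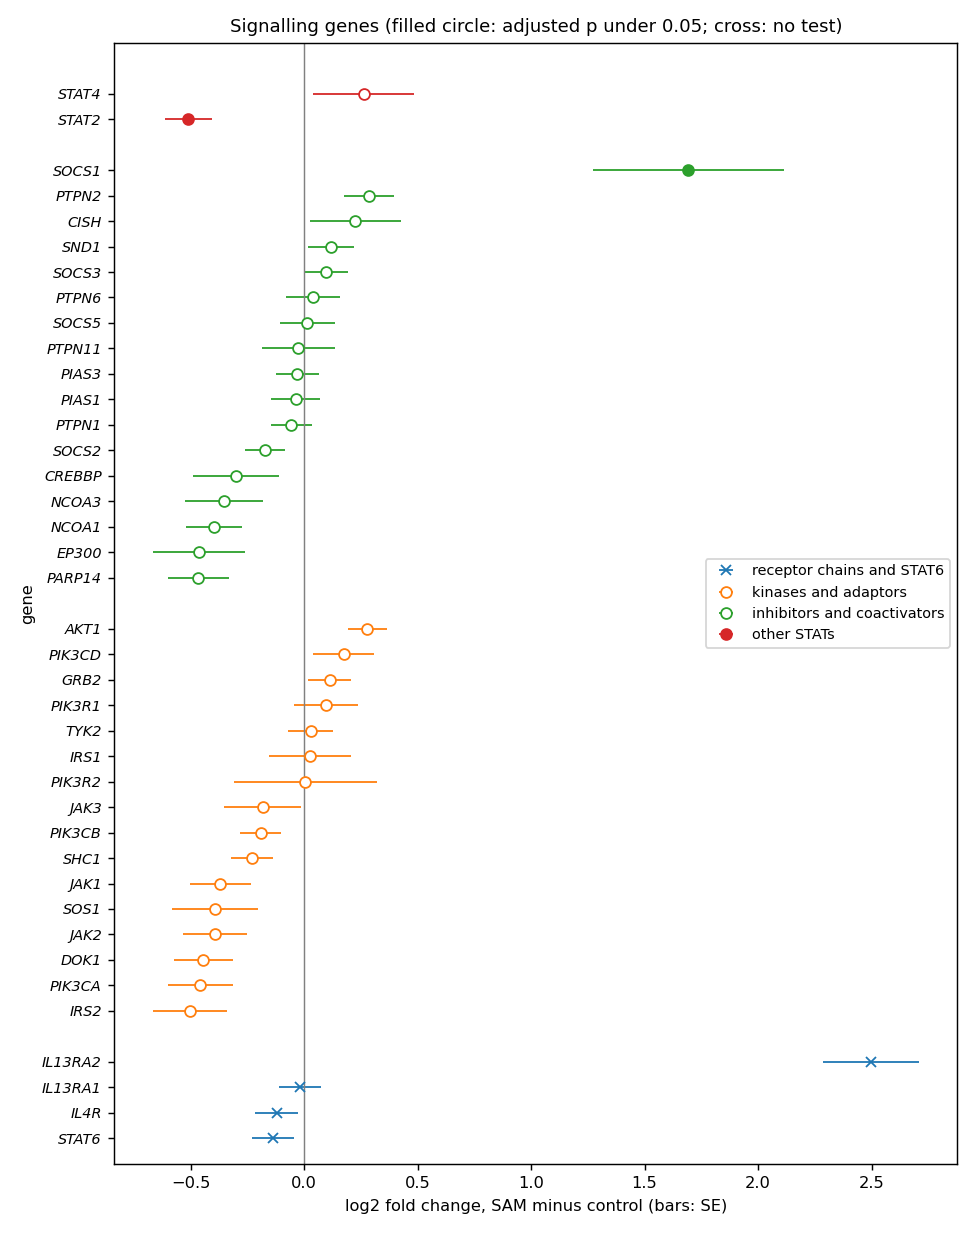
Log2 fold change, SAM minus control, of the members (crosses, no test) and of tested signalling genes (circles, filled where the edgeR adjusted p was under 0.05), with SE as bars. IL13RA2 stands at 2.50, SOCS1 at 1.69 and STAT2 at -0.51, and most other genes lie between -0.5 and 0.3.

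Per kb of the longest transcript in controls, STAT6 stood at 27.5 CPM, above STAT2 at 15.5 and STAT4 at 0.655 CPM. By the union of exons STAT6 was at 15.1 CPM per kb. STAT2 has no level by that length, so the order of STAT6 and STAT2 rests on the longest transcript. STAT2, a factor of interferon signalling, was measured at 100, 98.4 and 98.3 CPM in controls and 61.0, 75.6 and 72.2 CPM with SAM, a fall of every SAM library below the controls. Its log2 fold change was -0.51 (SE 0.11), with an edgeR adjusted p = 0.0191 that rose to as much as 0.0953 when any control or SAM 1 was dropped, which ended the call. STAT4 was at 1.82 ± 0.342 and 2.29 ± 0.347 CPM and did not pass.

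STAT3, STAT5A and STAT5B had 0 counts in all 6 libraries. These genes lie next to each other on chromosome 17, and they sat in a run of 15 listed genes with 0 counts throughout, from KAT2A at 42113108 to RNU7-97P at 42440259, which also held RAB5C and PTRF, genes that most cultured cells express. DHX58 on its lower side had 0 to 4 counts a library and ATP6V0A1 on its upper side 1 to 9. This stretch was looked at after its values were seen. Both flanking genes were low in counts, so the ends of the stretch are uncertain. PC-3 is known as a line that lacks STAT3, and the cause of the 0 counts in this stretch was not tested here.

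Genes that IL-4 and IL-13 are known to switch on or off did not move one way. Of 39 listed response genes, 36 were in the table, 7 of them with 0 counts in every library, and 16 were tested. Of these 16, 2 were higher, SERPINB2 and SOCS1, which is also on the list of inhibitors, 3 were lower, SPDEF, PPARG and GATA3, and 11 did not pass, with a median log2 fold change of -0.07. That is 31.2% called, SOCS1 included, against 10.4% of all tested genes. Nothing is read from this share, because the list was chosen with earlier results of these data known. Without control 1 and SAM 2 the counts were 3 higher and 1 lower. The 3 higher genes included SOCS1 and the chemokine gene CCL26, both low in counts. CCL26 passed the filter in that fit through the SAM libraries alone, so the count of 3 is no support for a difference.

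SERPINB2, an inhibitor of plasminogen activators and a marker of the airway response to IL-13, was at 3.65, 4.31 and 3.53 CPM in controls and 49.0, 13 and 7.99 CPM in SAM 1, 2 and 3. All SAM libraries lay above the controls and SAM 1 held most of the difference. The log2 fold change was 2.64 (SE 0.59), with an edgeR adjusted p = 0.0248, and limma voom, robust dispersion or dropping any control ended the call (largest adjusted p 0.121). SPDEF, a driver of goblet cell differentiation downstream of IL-13, was at 25.3, 30.5 and 25.2 CPM in controls and 9.20, 11.6 and 16.3 CPM with SAM, a log2 fold change of -1.15 (SE 0.19, edgeR adjusted p = 0.00925). That call was lost without control 2 or 3, with adjusted p up to 0.0552.

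PPARG, a nuclear receptor that acts with STAT6 in macrophages, was lower, at 184 ± 6.69 against 136 ± 10.9 CPM (log2 fold change -0.44, SE 0.10, edgeR adjusted p = 0.0227), and GATA3, the T helper 2 factor that epithelial cells also use, was lower as well, at 23.0 ± 0.768 against 15.3 ± 2.58 CPM (log2 fold change -0.60, SE 0.14, adjusted p = 0.0251). Both calls ended when any control, SAM 1, or control 1 and SAM 2 together were dropped, and that of PPARG also with the replicate number as a block, with adjusted p up to 0.105 for PPARG and 0.107 for GATA3. The response genes at the highest levels did not pass, among them CD44, the hyaluronan receptor, at 646 ± 14.6 and 680 ± 17.8 CPM, and TGM2, a transglutaminase, at 1404 ± 41.8 and 1320 ± 106 CPM.

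CCL26, eotaxin-3, is a chemokine that IL-13 induces through STAT6 in epithelial cells. With all libraries kept it was too low for the filter, and it is named after its values were seen. It had 0, 1 and 2 counts in controls and 21, 5 and 13 counts in SAM 1, 2 and 3. Its pooled ratio of SAM to control was 12, with an exact 95% interval of 3.82 to 60.8 for counting error only. The related chemokine genes CCL11 and CCL13 had 0 counts in all libraries, and CCL24 had at most 2 in any.

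IL13RA2 has also been described as a receptor for the chitinase-like protein CHI3L1, with TMEM219 as a partner, and as an inducer of TGFB1 through AP-1 factors. Of the 10 genes on that list 8 were tested, 1 of them higher and 1 lower, which is 25% called against 10.4% of all tested genes. Since earlier results of these data were known when the list was chosen, nothing is read from this share. CHI3L1 had 0, 0 and 2 counts in controls and 5, 3 and 1 with SAM, a pooled ratio of 4.16 with an exact interval of 0.861 to 39.6. TMEM219 was at 37.1 ± 0.917 and 41.9 ± 9.43 CPM and TGFB1 at 115 ± 1.33 and 114 ± 18.5 CPM, with overlapping groups. FOSL1, an AP-1 subunit, was at 228, 229 and 250 CPM in controls and 382, 385 and 443 CPM with SAM, a log2 fold change of 0.78 (SE 0.10, edgeR adjusted p = 0.00293) that passed in all 17 alternatives. JUNB, another AP-1 subunit, was lower, at 142 ± 5.39 against 112 ± 0.399 CPM (log2 fold change -0.34, edgeR adjusted p = 0.0369), and its call ended with no filter, with the replicate number as a block and when any control, SAM 1, or control 1 and SAM 2 together were dropped (largest adjusted p 0.189).

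Of the listed decoy and soluble cytokine receptors other than IL13RA2, 7 were tested and 1 was higher, which is 14.3% against 5.19% of all tested genes called higher. The list was chosen with earlier results of these data known, so nothing is read from this share. IL1R2, the decoy receptor of interleukin-1, was at 3.0, 3.68 and 2.94 CPM in controls and 17.7, 11.9 and 10.4 CPM in SAM 1, 2 and 3. As for IL13RA2, the controls were close together, SAM 1 was the highest library and the groups did not overlap. The log2 fold change of IL1R2 was 2.06 (SE 0.23, edgeR adjusted p = 0.00158) and it passed in all 17 alternatives. The interval of IL13RA2, 2.02 to 2.97, held this value, and the difference between these genes was not tested. IL18BP, which binds interleukin-18, and IL1RN, which blocks the interleukin-1 receptor, are on the list but are not receptors. Both had all SAM libraries above all controls, with edgeR adjusted p of 0.0644 and 0.0790. TNFRSF11B had all SAM libraries below all controls (log2 fold change -0.38, edgeR adjusted p = 0.154). Of the 7, 5 had a log2 fold change above 0 and 2 below. All SAM libraries lay above all controls in 3 of them and below in 1, against 17.9% and 18.8% of all tested genes.

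**Figure D5:**
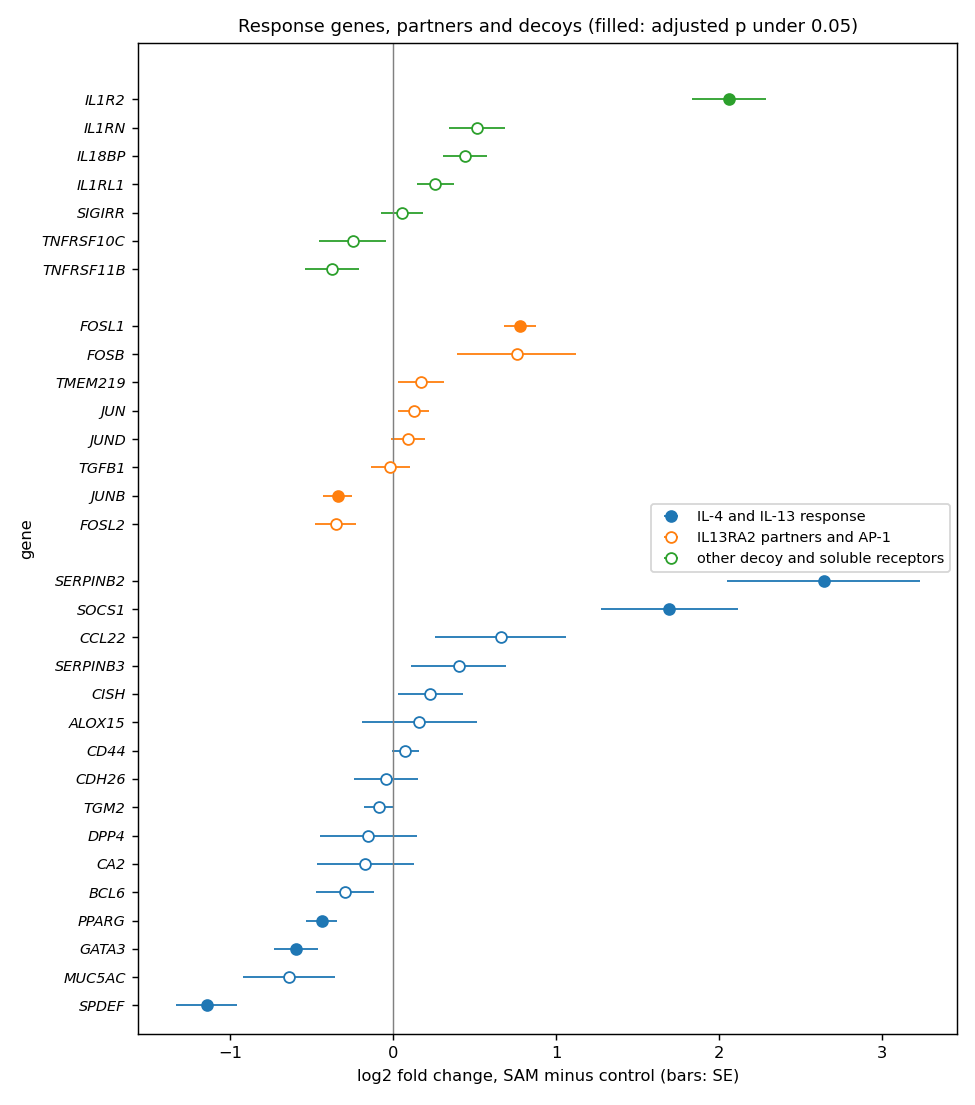
Log2 fold change, SAM minus control, of tested IL-4 and IL-13 response genes, described partners of IL13RA2 with AP-1 subunits, and other decoy or soluble cytokine receptors and inhibitors (filled where the edgeR adjusted p was under 0.05), with SE as bars. SERPINB2 at 2.64 and IL1R2 at 2.06 lie farthest to the right and SPDEF at -1.15 farthest to the left.

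Among the other genes listed as type I cytokine receptor chains, IL15RA included, 15 were tested. Of these 2 were higher and 1 was lower, or 20% called against 10.4% of all tested genes. Nothing is read from this share either, because the list was chosen with earlier results of these data known. IL27RA, the interleukin-27 chain, was at 29.7 ± 2.36 and 42.2 ± 3.30 CPM (log2 fold change 0.50, edgeR adjusted p = 0.0168), and IL6R, the interleukin-6 chain, at 10.7 ± 1.05 and 16.7 ± 3.21 CPM (log2 fold change 0.66, adjusted p = 0.0328). Both calls ended when any control or SAM 1 was dropped, and that of IL6R also without control 1 and SAM 2 (largest adjusted p 0.109 and 0.136). LEPR, the leptin receptor, was at 5.49 ± 0.186 and 1.68 ± 0.583 CPM (log2 fold change -1.74, SE 0.22, edgeR adjusted p = 0.00327) and passed in all 17 alternatives, but it shares exons with LEPROT, so its counts are uncertain. Without control 1 and SAM 2, 1 chain was higher and 1 lower.

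Neither tested neighbour of IL13RA2 on the X chromosome was higher with SAM. The nearest tested gene above IL13RA2 was LRCH2, 90639 bp away, at 2.96 ± 0.578 CPM in controls and 1.95 ± 0.109 CPM with SAM (log2 fold change -0.56, edgeR adjusted p = 0.110). On the other side the nearest was AMOT, an angiomotin, 2163160 bp away, which was lower, at 23.9 ± 1.67 against 15.2 ± 3.02 CPM (log2 fold change -0.66, edgeR adjusted p = 0.0219). Whether the AMOT call held in the alternatives is not given here. Beside IL13RA1, DOCK11 and LONRF3 had log2 fold changes of -0.24 and -0.30, and beside IL4R, NSMCE1 and GTF3C1 had 0.17 and 0.07, none past the threshold. GENCODE lists a gene on the opposite strand over 329 exon bases of IL4R (5.59%), not analysed here, so reads there are of uncertain origin. SNORA35 and the pseudogene RP13-128O4.3 lie inside IL13RA1 and had at most 1 count.

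STAT6 overlaps a gene on the opposite strand at each of its ends. In the GENCODE annotation NAB2 shares 69 exon bases with it and LRP1 shares 59, which is 0.945% and 0.808% of the exon bases of STAT6, and the sources used here do not state whether strand was used in counting. NAB2 was at 13.1 ± 1.39 and 17.5 ± 2.49 CPM and LRP1 at 128 ± 5.69 and 90.2 ± 24.3 CPM, both with an edgeR adjusted p = 0.0767. The share of STAT6 reads that could come from either was not tested. The nearest tested genes that do not overlap STAT6 were TMEM194A, with a log2 fold change of -0.04, and NXPH4, a neurexophilin, which was higher, at 18.4 ± 1.12 against 29.3 ± 1.53 CPM (log2 fold change 0.68, edgeR adjusted p = 0.00570). For NXPH4 too, the result in the alternatives is not given.

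The genes whose levels over the 6 libraries were most like those of IL13RA2 were ODC1, PHLDA2, HSPA8, FGF1 and MAGEA6, with Pearson correlations of 0.999, 0.998, 0.998, 0.997 and 0.997 on the log2 scale, among 11827 genes whose log2 CPM averaged 2 or more. ODC1, which starts polyamine synthesis, was at 435, 440 and 437 CPM in controls and 794, 667 and 677 CPM with SAM. HSPA8, a constitutive chaperone, was at 938, 960 and 892 CPM in controls and 2240, 1750 and 1870 CPM with SAM. In both, as in IL13RA2, SAM 1 was the highest library. MAGEA6 shares reads with near-identical MAGE genes, so its counts are uncertain. In all, 346 genes (2.93%) correlated with IL13RA2 above 0.95. The 6 points fall into 2 groups, so the difference between groups enters each of these values.

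For IL13RA1, which did not differ between groups, 3 genes passed the same value: PIAS1, an inhibitor of STAT signalling, at 0.971, RAB2A at 0.961 and C4orf48 at 0.952. The 3 genes most like IL4R were DAK, TFB1M and TBC1D22A, at 0.998, 0.997 and 0.992, and those most like STAT6 were CROCCP2, WWOX and NLGN2, at 0.998, 0.993 and 0.992. Among the members, the correlation over the 6 libraries was 0.81 between IL4R and STAT6 and -0.90 between IL13RA2 and STAT6. All of these values come from the same 6 libraries and their scaling, and they are given as a description.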

How the data were processed

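The authors deposited raw counts per Ensembl gene and, in a further table, a normalised signal, each count over a size factor of its library (used here only in an alternative). Builds hg19 and mm10 stand in the submitters' processing notes with no role, as do STAR 2.4 and HTSeq 0.6.1, DESeq2 1.8, SAMtools 0.1.19, and for the reads CASAVA 1.8.2 with FastQC 0.10.0. The deposited coordinates were checked against GENCODE 44 on GRCh38, where 99.92% of the 51488 shared identifiers overlapped their gene. The study's text gives another SAM dose than the labels, and the labels were followed. It describes the vehicle as sulfuric acid and ethanol in PBS. The study's other treatment arms were not analysed here.

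Here counts were filtered with filterByExpr, scaled by TMM and fitted with edgeR 4.0.16 (R 4.3.3; quasi-likelihood test, two-sided, treatment alone, Benjamini-Hochberg over 15312 genes, adjusted p under 0.05). The tested genes held 99.85% of all counts, and the common biological coefficient of variation was 13.5%. SE is the log2 fold change over the square root of F. CPM use TMM-scaled totals. Lengths are the longest GENCODE transcript, since the deposited transcript length of IL4R is 529 bases. Correlations used log2(CPM + 0.5). The scripts were tested on simulated data. No pair of libraries within a group was a duplicate (chi-square per degree of freedom 5.06 or more). Pairs of a control and a SAM library were not compared in this way. Alternatives used limma 3.58.1 and DESeq2 1.42.0.

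The members and the 13 lists were chosen with earlier results of these data known. Named genes were all members, every list gene called and a set of fixed names. Genes overlapping or next to a member and those most correlated with it were also named. Other genes that were not called were named outside these rules, among them IRS2, DOK1, AKT1, PARP14, PTPN2, CD44, TGM2, IL18BP, IL1RN and TNFRSF11B. The promoter of IL13RA2 is not printed. Values of 1 listed gene are not reported here.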

Additional observations from a re-analysis of the deposited data

How the results depend on the processing

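IL13RA2, described with no test, had log2 fold changes from 2.42 to 2.62 in those that kept all libraries or dropped control 1 and SAM 2, and from 2.21 (without SAM 1) to 2.64 with 1 library left out. IL13RA1 turned to 0.02 without control 2 or SAM 3, IL4R ran from -0.18 to -0.08 and STAT6 from -0.17 to -0.09. With exon unions as lengths, control levels were 26.3 CPM per kb for IL13RA1, 15.1 for STAT6, 13.8 for IL4R and 2.22 for IL13RA2, in the same order as with the longest transcript. Genes called, 795 higher and 803 lower, became 1402 and 1341 with no filter, 126 and 127 at an adjusted p under 0.01 and 446 and 508 without control 1 and SAM 2, and ran from 61 to 1661 and from 78 to 1572 with 1 library left out. Scaled by library totals alone they were 608 and 961, the median of all genes then being -0.04. Signalling genes, 1 higher and 1 lower, numbered 0 higher with a filter of 1 CPM, with limma trend and at an adjusted p under 0.01, and lower genes numbered 3 with library totals, 9 with no filter, 2 with robust dispersion, 4 with DESeq2, 3 with limma voom, 4 without control 1 and SAM 2 and 0 at an adjusted p under 0.01. With 1 library left out they ran from 0 to 3 higher and 0 to 11 lower. The cause of these moves was not tested. With the replicate number as a block, 440 genes were higher and IL13RA2 stood at 2.42. Same-numbered libraries, however, correlated at -0.21, -0.47 and 0.16 in their deviations, so the numbers were not taken as pairing. Between groups, control 1 and SAM 2 correlated highest, at 0.53, and the cause was not tested. Depth limits IL4, IL13, IL2RG, CHI3L1 and CCL26, which had at most 21 counts a library.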
